A study of Homo sapiens with 4 samples.

Results

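The insulin-like growth factor (IGF) axis was examined in GIST-T1, an established human gastrointestinal stromal tumor (GIST) line that had received either a miR-335 mimic, a synthetic copy of the microRNA, or a negative control RNA. The genes were chosen by name as the ligand IGF2, the receptors IGF1R, INSR and IGF2R, the receptor substrates IRS1 and IRS2, and the binding proteins IGFBP2, IGFBP3, IGFBP4 and IGFBP5. All 10 genes were on the array, among 36337 gene names in all, with 12 of its 50599 probes. Both groups were the same cell line, electroporated with 100 pmol of a synthetic RNA, and RNA was taken 48 h later and run on 1-color Agilent arrays from 100 ng of total RNA. There were 2 arrays per group, and the labels do not say whether they came from separate cultures, so the p-values below measure only the spread between these arrays. The comparison asks which transcripts of the axis differ once the microRNA is supplied. It rests on a single cell line, and the sources name neither the arm of the microRNA that the mimic carries nor a measurement of its uptake on these arrays.

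IGF1 and IGF2 are secreted growth factors that signal through the receptor tyrosine kinase IGF1R and, for IGF2, also through a form of the insulin receptor, INSR. The activated receptors phosphorylate the docking proteins IRS1 and IRS2, which recruit phosphatidylinositol 3-kinase (PI3K) and so activate AKT and mTOR and keep FOXO transcription factors out of the nucleus. IGF2R carries IGF2 to the lysosome instead of signaling, and the IGF-binding proteins hold the ligands in the extracellular fluid and control their access to receptors. A microRNA recognizes its targets mainly through bases 2 to 8, its seed, and lowers the stability or translation of mRNAs that hold a matching site.

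The mature sequences are shown because the seed, in capitals, defines what was sought in the probes. RefSeq places both arms of miR-335 on chromosome 7 of assembly GRCh38.p14 (plus strand), the 5p arm at chr7:130496126-130496148 and the 3p arm at chr7:130496162-130496183. miR-34a-5p, at chr1:9151735-9151756 on the minus strand, is included because the description field of both mimic samples also carries the name of a miR-34a mimic, while their titles, transfection field and protocol give miR-335.
hsa-miR-335-5p: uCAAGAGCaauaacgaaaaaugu
hsa-miR-335-3p: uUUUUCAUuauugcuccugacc
hsa-miR-34a-5p: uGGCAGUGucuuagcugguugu

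The match to each seed was sought as letters on the sense strand of the 60-base probes. None of the 12 probes held GCTCTTG, the match to the miR-335-5p seed, which was present in 0.437% of all probes on the array, and none held its shorter form CTCTTG, present in 1.92%. The reverse complement of GCTCTTG occurred in 1 of the 12, the INSR probe. None held CACTGCC, the match to the miR-34a-5p seed, found in 0.435% of all probes. The IGF2R probe held ATGAAAA, the match to the miR-335-3p seed, as did 1.22% of all probes. The 30 bases around that match lie at chr6:160527140-160527169 (hg19, plus strand), with the match in capitals.
IGF2R: acagaaactgcATGAAAAatcatgggccag
These letters cover only a small part of each transcript, and where the probes lie relative to the coding region was not analysed here.

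The label conflict was examined through genes that the study names as lowered by miR-335 and through textbook targets of miR-34a. Of 4 probes for the former, those for EIF5A2 (log2 difference, mimic minus control, -0.84) and ZMPSTE24 (-0.86) passed a Benjamini-Hochberg adjusted p of 0.05 in limma, and both MAT2B probes (-0.66 and -0.48) did not. These genes were picked by the study on these arrays, so they are not independent evidence of the label. Of 11 tested probes for textbook targets of miR-34a, 2 passed, both lower and both for the apoptosis inhibitor BCL2 (-0.45 each, limma adjusted p = 0.0428 and 0.0487). Over all tested probes on the array, 2.62% passed. At an unadjusted limma p of 0.05, 5 of the 11 were lower and 1 was higher, against 25.3% of all tested probes in either direction. E2F3 differed by -0.32 and -0.45 with its probes, CCND1 by -0.14, PDGFRA by -0.08 and LEF1 by 0.17. The probes for the textbook targets CDK6 and MET were not well above background on any array. These values do not settle the label, and the samples are called miR-335 mimic below as their titles give it.

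All 13 probes for 6 markers of GIST and its Cajal cell lineage (KIT, ANO1, ETV1, PRKCQ, PDGFRA and CD34) were well above background on all 4 arrays. Of 16 probes for epithelial, leukocyte, endothelial, smooth muscle and liver markers, 13 were well above background on none, that for CDH5 was on 2, and those for DES and EPCAM were on all 4. EPCAM, an epithelial marker, read -0.54 on control array 1 against -1.59 on control array 2 and -2.15 and -1.76 on the mimic arrays (normalized log2 values), and its part in the results below was not tested. The share of all probes well above background was 40.3% to 41.9% per array. The 4 arrays shared 1 slide and 1 scan, with the controls at positions 1 and 2 and the mimics at positions 3 and 4, so position and group cannot be told apart. Replicate arrays differed by a median of 0.06 (log2 scale, absolute) in each group.

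Detection came first, since some of the probes for the receptors and their substrates were near or below the lower limit of the assay. Well above background on all 4 arrays were 8 of the 12 probes, covering 7 genes (IGF2, IGF2R, IRS1 and the binding proteins IGFBP2, IGFBP3, IGFBP4 and IGFBP5). The single probes for INSR and IRS2 and the second of the IRS1 probes were well above background on none, and the IGF1R probe was on 2 of 4. IGF1R, INSR and IRS2 were therefore not tested, and no fold change is given for them.

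The ligand IGF2 was read strongly, below saturation, and did not pass the test with either probe. Probe A_23_P150609, toward the 3′ end of the transcript (chr11:2150394-2150453, hg19, minus strand), gave 226025 and 231680 intensity units on the control arrays and 229030 and 221843 on the mimic arrays. The mean pixel signal of the spot was between 31.8% and 33.1% of the scanner's saturation value, and no spot on any array was saturated. After subtraction of each array's 75th percentile on the log2 scale, which is the normalized value used from here on, the readings were 10.30 and 10.32 in controls and 10.24 in both mimic arrays. The mimic arrays lay just below the controls without overlap, and the difference was -0.07 (SE 0.04, 95% interval -0.17 to 0.03, limma adjusted p = 0.322).

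The other IGF2 probe, A_23_P421379, reads an upstream stretch of the same transcript. Its 60 bases span 353 bases of the genome (chr11:2154402-2154754, hg19, minus strand), so it crosses a splice junction and reads spliced RNA. It is shown because it gave the larger IGF2 difference.
IGF2 junction probe: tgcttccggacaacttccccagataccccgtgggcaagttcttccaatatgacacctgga
Its signals were 2469 and 2592 in controls and 2191 and 2258 in mimic arrays, or 3.79 and 3.83 against 3.53 and 3.63 after normalization. Both mimic arrays were below both controls, with a difference of -0.23 (SE 0.05, 95% interval -0.39 to -0.08). The unadjusted limma p was 0.0149 and the adjusted p was 0.120, so IGF2 was not called by either probe. Whether the difference itself differed between the IGF2 probes was not tested.

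The neighboring transcripts of the IGF2 locus were read by probes of their own. INS-IGF2, a read-through transcript from the insulin gene, had a probe that was well above background on no array. Its values of 5.24 to 6.72 units were all stand-ins from the scanner software, for spots not flagged as positive and significant. IGF2-AS, transcribed from the opposite strand, was well above background on all 4 arrays with both of its probes. Probe A_23_P116435 (chr11:2169765-2169824, hg19, plus strand) read 5.16 and 5.17 in controls and 5.32 and 5.28 in mimic arrays. Probe A_33_P3312819 (chr11:2168656-2168715, hg19, plus strand) read -0.09 and -0.29 in controls and 0.06 and 0.14 in mimic arrays. The mimic arrays were above the controls with both probes, by 0.14 (SE 0.04, limma adjusted p = 0.151) and 0.29 (SE 0.09, adjusted p = 0.171), and neither passed. The first of these differences passed with a limma prior that follows intensity (adjusted p = 0.0156), a setting that called more of the whole array. It became -0.044 on a scale set by the spike-in probes. The second was 0.19 without control array 2.

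Among the receptors, IGF1R, the signaling receptor for both ligands, was at the edge of detection. Its probe (chr15:99507366-99507425, hg19, plus strand) gave 23.8 and 23.0 units in controls and 24.1 and 19.5 in mimic arrays. It was flagged as well above background on control array 2 and mimic array 1 and not on the others. The lowest signal of any probe well above background was between 19.9 and 24.0 units per array, so the IGF1R readings lay at that limit. The normalized values overlapped between groups, at -2.91 and -2.98 in controls and -2.97 and -3.23 in mimic arrays.

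INSR, the insulin receptor, gave 10.1 and 5.29 units in controls and 11.7 and 8.04 in mimic arrays (chr19:7112351-7112410, hg19, minus strand). These were below the detection limit on every array. They were above the median of the negative control spots, which was 4.84 to 5.89 units, but so were the stand-in values for INS-IGF2. The 5.29 of control array 2 was itself a stand-in from the scanner software, for a spot not flagged as positive and significant. The groups overlapped, and signals of this size have no order between groups.

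IGF2R, the lysosomal sorting receptor that clears IGF2, was well measured. Its probe (chr6:160527114-160527173, hg19, plus strand), which holds the miR-335-3p seed match shown above, read 3.41 in both controls and 3.43 and 3.34 in mimic arrays. The groups overlapped, and the difference was -0.024 (SE 0.05, 95% interval -0.17 to 0.12, limma adjusted p = 0.789). The direction rested on mimic array 2, since without it the difference was 0.024.

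Of the receptor substrates, IRS1 was readable with 1 of its 2 probes. Probe A_24_P225679 (chr2:227600148-227600207, hg19, minus strand) read -1.18 and -1.46 in controls and -1.28 and -1.25 in mimic arrays. Both mimic readings fell between the controls, with a difference of 0.05 (SE 0.11, 95% interval -0.27 to 0.37, adjusted p = 0.789 in limma). It became -0.087 without control array 2 and -0.13 on the spike-in scale. The second IRS1 probe, A_24_P802145 (chr2:227596618-227596677, hg19, minus strand), gave 9.57 and 10.9 units in controls and 7.62 and 6.004 in mimic arrays, none of them well above background.

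IRS2, the paralog of IRS1, was also below the limit. Its probe (chr13:110406645-110406704, hg19, minus strand) gave 11.1 and 4.31 units in controls and 4.78 and 5.23 in mimic arrays. All but the 11.1 of control array 1 were stand-ins from the scanner software, for spots not flagged as positive and significant. The controls differed from each other by more than the groups did, and these differences are not read as signal.

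**Figure D1:**
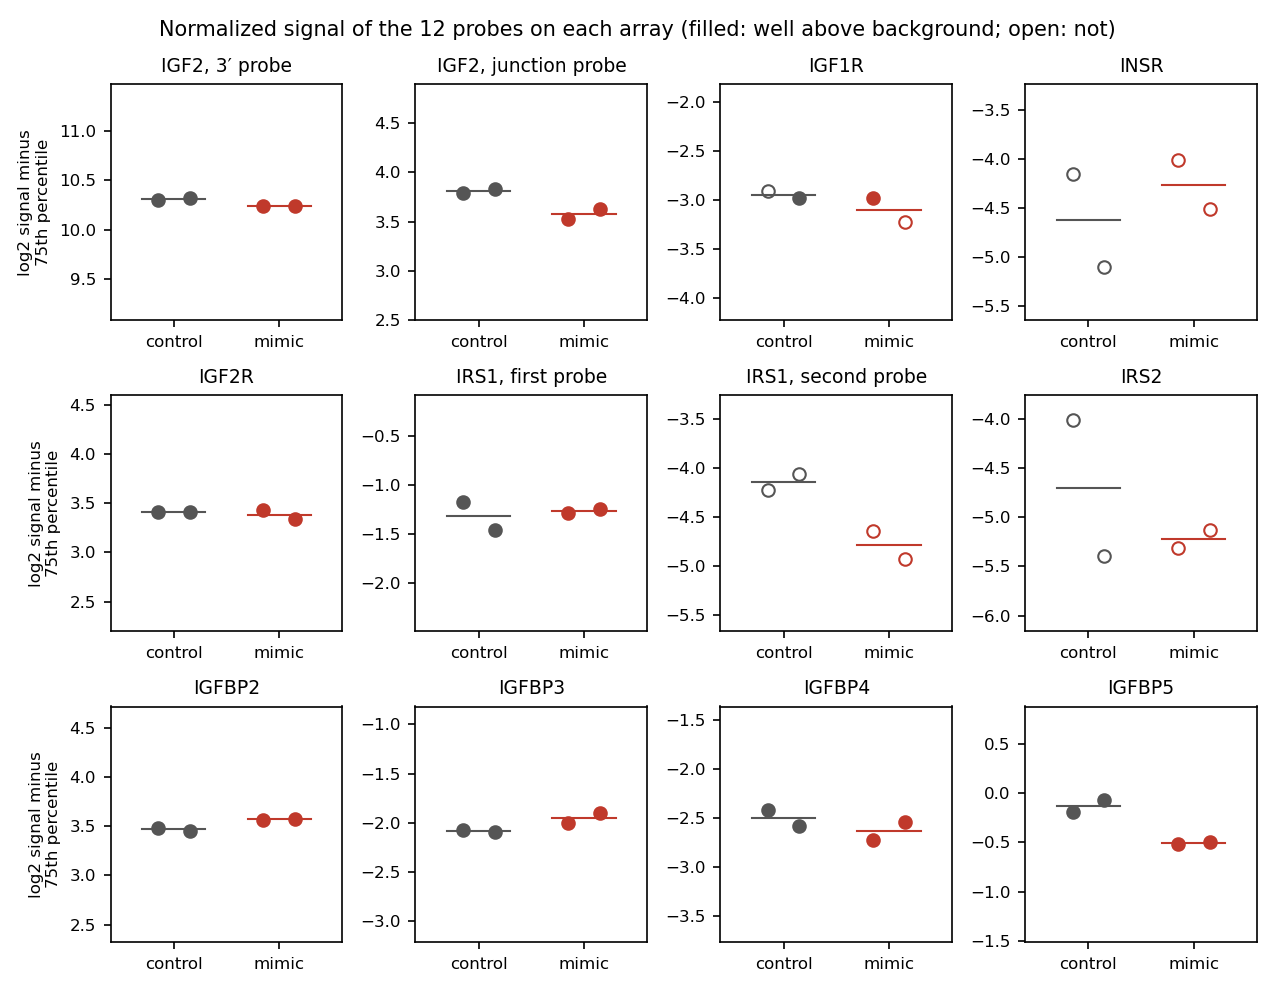
Normalized signal (log2 processed signal minus the array's 75th percentile, y axis) of the 12 probes on the 2 control and 2 mimic arrays, with a bar at each group mean; filled points were well above background and open points were not. Every panel spans the same log2 range, the IGF1R panel mixes filled and open points, and IGFBP5 shows the widest gap between groups among the 8 tested probes.

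The binding proteins held both the largest fall and the largest rise of the tested probes in log2 difference, and neither passed the adjusted threshold. IGFBP5, which binds IGF ligands and the extracellular matrix, gave 157 and 173 units in controls and 133 and 129 in mimic arrays (chr2:217537167-217537226, hg19, minus strand). After normalization the controls read -0.19 and -0.07 and the mimic arrays -0.51 and -0.50. The groups did not overlap, and the gap between them was wider than the 0.12 between the control arrays. The difference was -0.38 (SE 0.06, 95% interval -0.54 to -0.22), or 1.30-fold lower with the mimic. Its unadjusted limma p was 0.00366 and its adjusted p was 0.0721.

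Whether IGFBP5 was called depended on the processing. It passed the threshold with normexp background correction (-0.25, adjusted p = 0.0445), on the spike-in scale (-0.56, adjusted p = 0.0220) and with a limma prior that follows intensity (-0.38, adjusted p = 0.0251). These settings called more of the whole array too. Of 20328 tested probes, normexp called 1550 and the spike-in scale 9174 (8668 of them lower), against 532 in the main fit. The prior that follows intensity also called more, as given below. With any 1 array left out, the difference stayed between -0.44 (without control array 1) and -0.32 (without control array 2). Those fits leave 1 array in a group, so no call is read from them.

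IGFBP2, an IGF2-preferring binding protein, lies next to IGFBP5 on chromosome 2 with the opposite orientation, and the probes are 8021 bases apart. The array carries IGFBP2 (chr2:217529086-217529145, hg19, plus strand) on 10 spots, so the spread within an array can be read directly. The spots ranged from 1865 to 2108 units on control array 1, from 1901 to 2061 on control array 2, from 2128 to 2303 on mimic array 1 and from 2025 to 2296 on mimic array 2. The SD between spots was 0.03 to 0.06 on the log2 scale. The normalized values were 3.48 and 3.46 in controls and 3.56 and 3.58 in mimic arrays, without overlap. The difference was 0.10 (SE 0.04, 95% interval -0.01 to 0.21, limma adjusted p = 0.214), and it became -0.081 on the spike-in scale.

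IGFBP3, the main carrier of IGFs in serum, was also on 10 spots, near the lower end of the measurable range (chr7:45952608-45952667, hg19, minus strand). Its median spot signal was 41.4 and 41.5 units in controls and 47.0 and 48.01 in mimic arrays, where 9 spots were usable on mimic array 2. The spots overlapped widely between arrays, with an SD of 0.14 to 0.26 on the log2 scale. The normalized array values did not overlap, at -2.08 and -2.09 in controls and -2.00 and -1.90 in mimic arrays. The difference was 0.13 (SE 0.05, 95% interval -0.02 to 0.29, limma adjusted p = 0.236), and on the spike-in scale it was -0.049. It was 0.082 without mimic array 2 and 0.081 with normexp background correction.

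**Figure D2:**
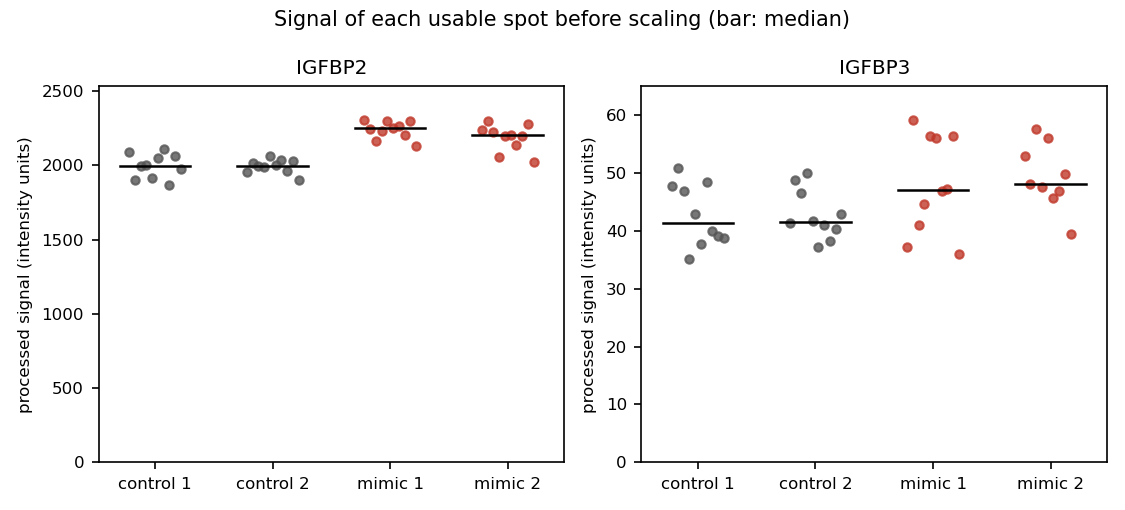
Processed signal in intensity units (y axis, from 0, before scaling between arrays) of each usable replicate spot of IGFBP2 (left) and IGFBP3 (right) on the 4 arrays, with a bar at the median. The IGFBP2 medians are near 1997 units on both controls and at 2249 and 2201 on the mimic arrays, while the IGFBP3 spots of all arrays overlap.

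IGFBP4, a binding protein that is cleaved by the protease PAPPA, gave 33.5 and 30.3 units in controls and 28.6 and 31.5 in mimic arrays (chr17:38613308-38613367, hg19, plus strand). The normalized values of -2.42 and -2.58 in controls and -2.73 and -2.54 in mimic arrays overlapped. The difference was -0.13 (SE 0.10, 95% interval -0.43 to 0.16, limma adjusted p = 0.467). It was -0.049 without control array 1, -0.22 without control array 2, -0.038 without mimic array 1, -0.23 without mimic array 2 and -0.023 with normexp background correction.

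Over the axis, 0 of 8 tested probes were called at an adjusted limma p of 0.05, against 2.62% of the 20328 probes tested on the array. At an unadjusted p of 0.05, 2 of 8 passed (IGFBP5 and the IGF2 junction probe), against 25.3% of all. A difference of more than 1.5-fold was reached by 0 of 8, against 3.9% of all. The groups did not overlap for 5 of 8, against 59.7% of all. These shares are close to the background. The median difference was -0.05, with 3 probes above 0 and 5 below, and over all tested probes the median was -0.01 with 53.8% below 0. All 8 intervals lay within 1.5-fold in either direction, as did those of 83.2% of all tested probes. That bound holds for the scale used here. With 2 arrays against 2, the smallest two-sided p of an exact permutation test for 1 probe is 0.333.

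**Figure D3:**
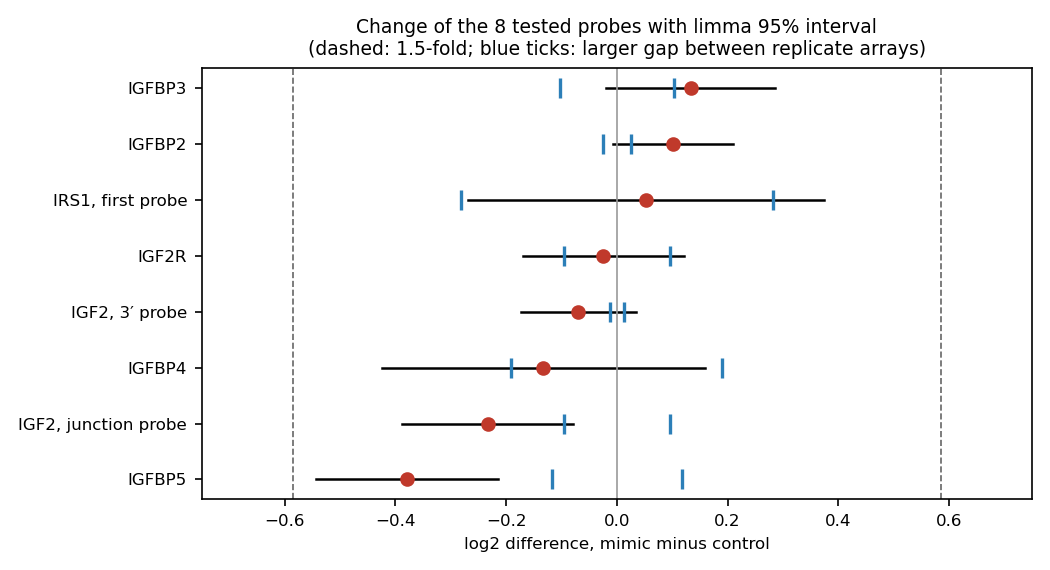
Difference between mimic and control group means (log2 scale, x axis) of the 8 tested probes with its 95% interval from limma; dashed lines mark 1.5-fold and blue ticks the larger of the gaps between replicate arrays, drawn on both sides of 0. IGFBP5 at -0.38 and the IGF2 junction probe at -0.23 have intervals that leave out 0, and no interval reaches a dashed line.

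The rest of the pathway was followed with a list of 54 genes, of which 42 had a tested probe. All 42 were read by the 60 listed probes detected on every array. None of these 60 was called in limma, against 2.62% of all tested probes. At an unadjusted p of 0.05, 14 of the 60 passed (23.3%, against 25.3% of all), 10 of them lower and 4 higher with the mimic. The median difference over the 60 probes was -0.02. Upstream, IGF1, INS and the insulin receptor relative INSRR were well above background on no array, so IGF2 was the ligand of the family that the arrays could read. The same was true of IGFALS, which forms the ternary complex of IGFs in serum, of the binding protein proteases PAPPA and PAPPA2, of the PAPPA inhibitor STC1, and of the adaptors IRS4 and GRB14. The binding protein IGFBP1 was well above background on control array 1 only.

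The genes named here had the largest differences among probes that were detected on all arrays and did not overlap between groups. PIK3R3, a regulatory subunit of PI3K, read -0.14 and -0.21 in controls and 0.22 and 0.21 in mimic arrays, a difference of 0.39 (SE 0.05, limma adjusted p = 0.0533). FOXO1, a transcription factor that AKT inactivates, read -0.38 in both controls and -0.69 and -0.68 in mimic arrays, a difference of -0.30 (SE 0.04, adjusted p = 0.0537). Both were at the edge of the threshold. Both passed when probes had to be detected on all 4 arrays (adjusted p = 0.0452 and 0.0463). With normexp background correction, which called 1550 of all tested probes against 532, PIK3R3 passed (0.31, adjusted p = 0.0129). FOXO1 differed by -0.16 there and did not pass (adjusted p = 0.0932). With any 1 array left out, the difference was 0.35 to 0.43 for PIK3R3 and -0.31 to -0.30 for FOXO1. Those fits leave 1 array in a group, so no call is read from them.

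PTPN11, the phosphatase SHP2 that acts downstream of receptor tyrosine kinases, differed by -0.37 (SE 0.06, limma adjusted p = 0.0759) with probe A_21_P0012454. Its other probes gave 0.18 and -0.02, so the probes of this gene disagreed. With normexp background correction, which called 1550 of the 20328 tested probes, that PTPN11 probe and the PHLPP2 probe below passed (adjusted p = 0.0149 and 0.0415). PHLPP2, a phosphatase that removes an activating phosphate from AKT, read 1.02 and 1.07 in controls and 0.73 and 0.79 in mimic arrays, a difference of -0.28 (SE 0.05, adjusted p = 0.0796). A second PHLPP2 probe was well above background on both controls (-1.21 and -2.03) and neither mimic array. The control mean gives a rough figure of 2.57-fold lower. The controls differed from each other by 0.82, and control array 2 alone would give a smaller figure. The probe was looked at after its values were seen, and it met the detection filter through the controls alone. The figure is therefore given as a description without a test. It sets the control mean against a level for each mimic array. That level is the larger of the probe's own reading and the array's lowest signal well above background. On mimic array 1 the probe read 23.3 units without the flag, above that lowest signal of 22.1 units. The lowest flagged signal is therefore no upper limit for unflagged probes, and the figure is not a firm bound.

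STC2, an inhibitor of PAPPA, read -1.80 and -1.43 in controls and -1.87 and -1.93 in mimic arrays, a difference of -0.29 (SE 0.14, limma adjusted p = 0.303). It was -0.11 without control array 2, -0.47 without control array 1 and -0.11 with normexp background correction. IGF2BP1, which binds IGF2 mRNA among others, read -1.16 in both controls and -1.43 and -1.32 in mimic arrays, a difference of -0.22 (SE 0.05, adjusted p = 0.130) that was -0.089 with normexp background correction.

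By role, 0 of the 60 probes passed in any group, and 53.8% of all tested probes on the array were below 0. The FOXO and GSK3 group had 7 of 7 probes below 0 (median -0.11, range -0.30 to -0.04), which read 5 genes, 3 of the probes being for FOXO3. The IGF2 mRNA-binding proteins had 4 of 4 below 0, for 3 genes (median -0.16, range -0.22 to -0.08). The PI3K and AKT group had 6 of 17 below 0 (median 0.02), the mTOR group 6 of 15 (median 0.01), and the adaptors and phosphatases 8 of 13 (median -0.02). Of the other binding proteins, IGFBP6 differed by 0.02 and IGFBP7 by -0.17 (limma adjusted p = 0.872 and 0.134).

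**Figure D4:**
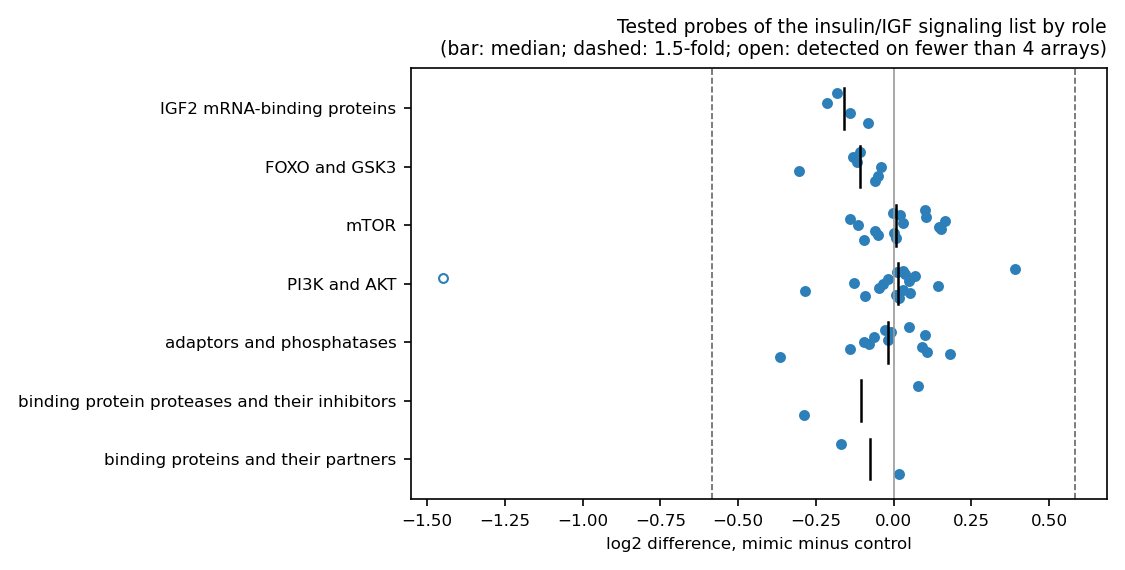
Difference between mimic and control group means (log2 scale, x axis) of the 61 tested probes of the signaling list, 1 point per probe, by role (y axis), with a bar at the median; dashed lines mark 1.5-fold. Most points lie within 0.20 of 0, PIK3R3 is the rightmost at 0.39, and the open point at -1.45 is the second PHLPP2 probe, which was not well above background on the mimic arrays.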

How the data were processed

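The authors deposited 1 scanner file per array from Feature Extraction 10.7.3.1, per the file headers. The processed intensity in them was background-subtracted and not scaled between arrays, and a rounded copy was deposited as a series-wide table, in which 0 columns had no matching sample. Flagged outlier spots (356 to 395 per array) were left out, replicate spots were averaged on the log2 scale, and each array's 75th percentile was subtracted. A probe was well above background when the scanner software flagged at least 0.5 of its usable spots, and was tested when both arrays of a group met this. The groups given by the labels were compared in R 4.3.3 with limma 3.58.1 and Benjamini-Hochberg adjustment over 20328 probes. The step was tested on simulated data. Figures were drawn with matplotlib 3.10.9. The number of arrays limits the precision.

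The genes, lists and tests were chosen with earlier results of these data known. Every probe of the 10 genes is given, with INS-IGF2 and IGF2-AS. From the signaling list, written from general knowledge, any called gene was to be named, and otherwise the 6 with the largest difference among probes detected on all arrays whose groups did not overlap. The array files supplied gene names and coordinates (hg19), and microRNA sequences are RefSeq's. Alternatives were other background corrections, scalings, detection filters, limma priors, a replicate block, leaving out each array, the series table and the methods' t-test.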

Additional observations from a re-analysis of the deposited data

How the results depend on the processing

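The 8 tested probes of the axis yielded 0 calls under 13 of 17 alternatives. There was 1 call with normexp (IGFBP5), 2 with an intensity-dependent prior (IGFBP5 and the IGF2 junction probe), 3 on the spike-in scale (IGFBP5 and both IGF2 probes) and 4 with the methods' t-test at an unadjusted threshold. Of all tested probes, 532 were called (233 lower and 299 higher), against 1550 with normexp, 3083 with the intensity-dependent prior, 9174 on the spike-in scale (8668 lower and 506 higher) and 4115 with the unadjusted t-test. The count was 0 by limma without a detection filter (3627 at an unadjusted p of 0.05), with detection required on 1 array only (4696) and with the replicate block (4400). It was also 0 for the t-test after Benjamini-Hochberg adjustment, and 0 with any 1 array left out except mimic array 2, without which it was 8. Genes of the signaling list called numbered 0, against 3 with normexp, 1 with quantile normalization, 1 with the 75th percentile over detected probes, 25 on the spike-in scale, 2 with detection on all 4 arrays, 7 with the intensity-dependent prior and 14 with the unadjusted t-test.

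The median difference of the axis was -0.05, -0.23 on the spike-in scale, -0.10 for all 12 probes without a filter, and -0.08 to -0.02 with any 1 array left out. Without a filter 1 probe, the undetected second IRS1 probe, was over 1.5-fold. Spike-in scaling, from 7 spike-in probes well above background on every spot, moved the median of all tested probes to -0.20. It reversed IGFBP2 (-0.081), IGFBP3 (-0.049), IRS1 (-0.13) and the IGF2-AS probe A_23_P116435 (-0.044), since it shifts every probe by the same amount. With any 1 array left out, IRS1 ranged from -0.087 (without control array 2) to 0.19 and IGF2R from -0.072 to 0.024 (without mimic array 2). The replicate numbers name the arrays and do not pair them (correlation of deviations 0.03), and the replicate block left 0 of the 8 probes called. The label-check calls were also lost under the replicate block (adjusted p = 0.125 to 0.129 in limma), where no probe on the array passed. With any 1 array left out, the differences of those called probes stayed between -0.90 and -0.42. The slide as a block could not be run, since all arrays shared 1 slide. The causes of these changes were otherwise not tested. Signal over background limits IGF1R, INSR, IRS2 and the second IRS1 probe.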
